A study of Mus musculus with 36 samples.

Results

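The genes described here act in mitosis, and they were followed in mouse embryonic fibroblasts of 2 genotypes over 5 times. They were chosen by name from a list of 41 symbols, matched to the gene symbols of the array's annotation. This rule uses no signal, but the list was drawn up with earlier results of these data known. Of the 41, 39 had a probe set annotated to that gene alone, among 12393 such genes on the array. The test covered 35 of them, among 7436 tested genes. Ccnb1 and Cdca8 were not analysed here. Cdc25c, Nek2, Cenpe and Ect2 lay under the limit for testing, a mean signal of about 123, and are given by their values.

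PKBa-/- fibroblasts lack protein kinase B alpha, the product of Akt1, a kinase that passes growth factor signals on. They were compared with wild type fibroblasts at the times 0, 2, 6, 24 and 48, for which the labels give no unit. Each genotype had 4 arrays at every time except time 2, which had replicates 1 and 2 alone, so that 36 arrays made 10 groups. Both genotypes came from embryos 13.5 days old of matings between heterozygous PKBa mice, and the cells had gone through 15 to 20 passages in DMEM with foetal calf serum. How many embryos or lines stand behind each genotype is not stated, so a difference between genotypes and one between single lines cannot be told apart. The series is called a time course in DMEM; its protocol text adds an adipogenic hormone mix for postconfluent cells, and which of these the arrays had is not given per array.

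Cells enter mitosis when cyclin A and cyclin B activate the kinase Cdk1, with help from Plk1 and the Aurora kinases. Chromosomes condense, motor proteins help to build the spindle, and a checkpoint holds back the anaphase-promoting complex until every chromosome is attached. Cdc20 then starts the destruction of securin and cyclin B, and the central spindle guides cytokinesis. The genes of this machinery are transcribed late in the cell cycle, under the factors B-Myb and FoxM1, and are repressed in resting cells by the DREAM complex. In a culture of fibroblasts their joint level is therefore widely used as a sign of how many cells divide.

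The targeted gene was read first. Akt1 signal ran from 43.8 to 103 over the PKBa-/- arrays and from 843 to 1395 over the wild type arrays, and its log2 difference lay between -3.22 and -3.65 at the 5 times. The median signal of an array was 134 to 145. Within a group, replicate 1 resembled replicate 2 and replicate 3 resembled replicate 4 (median r = 0.993) more than they resembled the other pair (0.966), so each such pair was averaged and counted as 1 observation. The labels do not say that replicates were separate cultures, and p-values measure only the spread between these pairs. A gene is said to have passed where limma's adjusted p was under 0.05. All 10 fibroblast markers were on the array, with mean signals from 665 (Pdgfrb) to 15811 (Col1a2), and their sum was 60072 to 69171 in PKBa-/- arrays and 52991 to 65814 in wild type arrays. They moved with genotype: at times 24 and 48 alike, 5 of the 10 were higher in PKBa-/- and 2 lower, with differences from -3.78 to 3.11 at time 24 and from -2.80 to 3.31 at time 48. Single arrays ran from 104 to 5852 for Thy1 and from 399 to 11171 for Dcn. Over 7 of 8 leukocyte markers the sum was 626 to 970 in PKBa-/- arrays and 754 to 1355 in wild type arrays, with mean signals of 17.3 for the defining Ptprc, 170 for Cd14, 214 for Csf1r and 301 for Cd3e. Over 6 of 6 epithelium markers it was 344 to 471 in PKBa-/- arrays and 363 to 441 in wild type arrays, with Cdh1 at 14.2 and Krt8 at 115. Over 6 of 6 muscle markers it was 322 to 448 in PKBa-/- arrays and 364 to 596 in wild type arrays, with Myh3 at 17.2 and Des at 211. Summed over 6 of 6 endothelium markers, the signal was 411 to 659 in PKBa-/- arrays and 747 to 2161 in wild type arrays, carried by Kdr and Cd34, while the defining markers Pecam1, Cdh5, Tek and Tie1 averaged 50.5, 56.0, 30.7 and 23.7. The sum over 6 of 8 adipocyte markers was 1158 to 2254 in PKBa-/- arrays and 2644 to 5899 in wild type arrays, carried by Lpl, with means of 19.8 for Adipoq, 220 for Retn and 236 for Cebpa. The part of these 6 lists in the genotype differences below was not tested.

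The mitosis genes moved together. Their mean level, taken over the 35 tested genes as log2(signal + 32) and set to 0 at the mean of wild type time 0, was lowest at time 2 and highest at time 24 in both genotypes. In PKBa-/- arrays it lay between -0.394 and -0.038 at time 0, between -0.743 and -0.700 at time 2, and between -0.389 and -0.329 at time 6. It then lay between 0.366 and 0.850 at time 24 and between 0.138 and 0.289 at time 48. Wild type arrays spanned -0.156 to 0.172 at time 0, -0.447 to -0.429 at time 2, -0.087 to 0.257 at time 6, 0.104 to 0.462 at time 24 and -0.358 to -0.133 at time 48. Thus all PKBa-/- arrays lay below all wild type arrays at times 2 and 6, and above them at time 48, while at time 24 the genotypes overlapped. In bulk RNA, fewer cells in mitosis and less RNA of these genes per cell cannot be told apart.

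**Figure D1:**
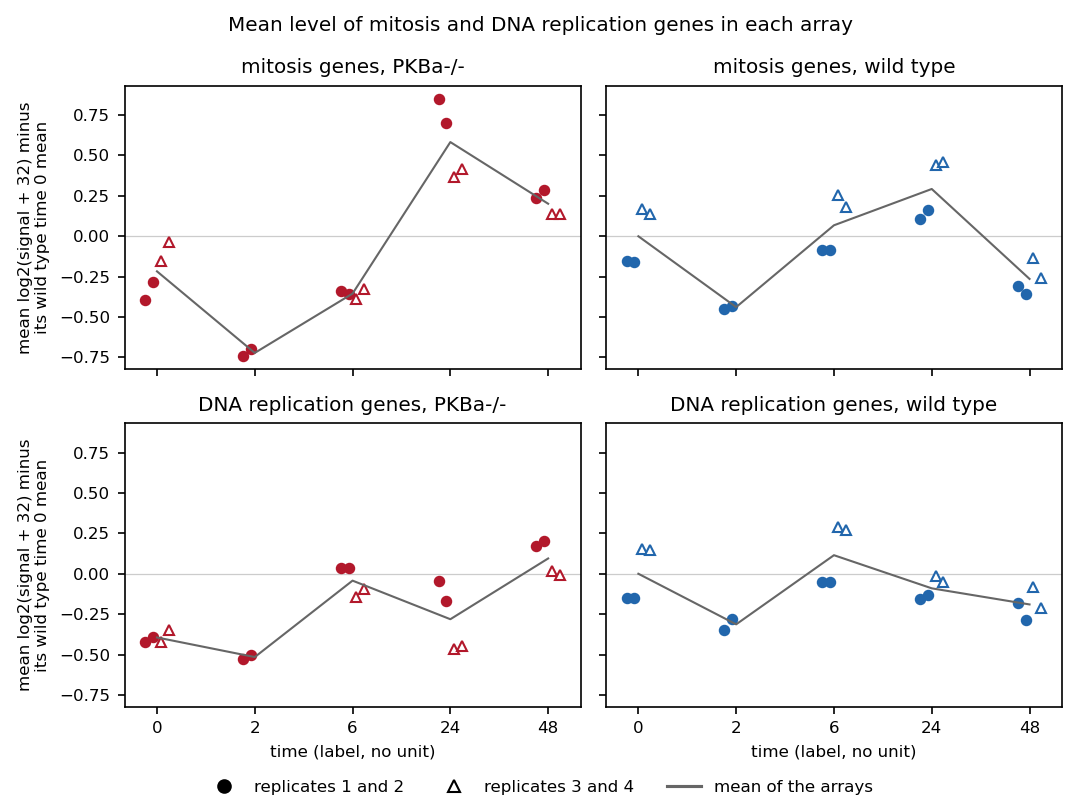
Mean level of the 35 tested mitosis genes (top) and of the DNA replication genes (bottom) in each array, as log2(signal + 32) minus the mean of wild type time 0, against the time label; PKBa-/- is on the left and wild type on the right. Filled circles are replicates 1 and 2, open triangles replicates 3 and 4, and the line joins the means; the PKBa-/- mitosis level reaches 0.850 at time 24 and lies between -0.743 and -0.700 at time 2.

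Over 18 pair averages, the Pearson correlation of each tested gene with the mean of the other mitosis genes had a median of 0.885 and ran from 0.294 to 0.980. These correlations describe points that share arrays and times and carry no test. Hmmr, a spindle assembly factor that binds hyaluronan outside the cell (0.980), Prc1, which bundles the microtubules of the central spindle (0.977), Tpx2, the activator of Aurora A on the spindle (0.968), and Kif2c, a kinesin that takes microtubules apart at centromeres (0.968), followed the mean most closely. Bub3, which docks the checkpoint proteins Bub1 and BubR1 on kinetochores, followed it least (0.294), and next came the chromosome arm kinesin Kif4 (0.692). The map of all 35 genes shows Bub3 as a nearly even row between columns that turn from blue to red.

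**Figure D2:**
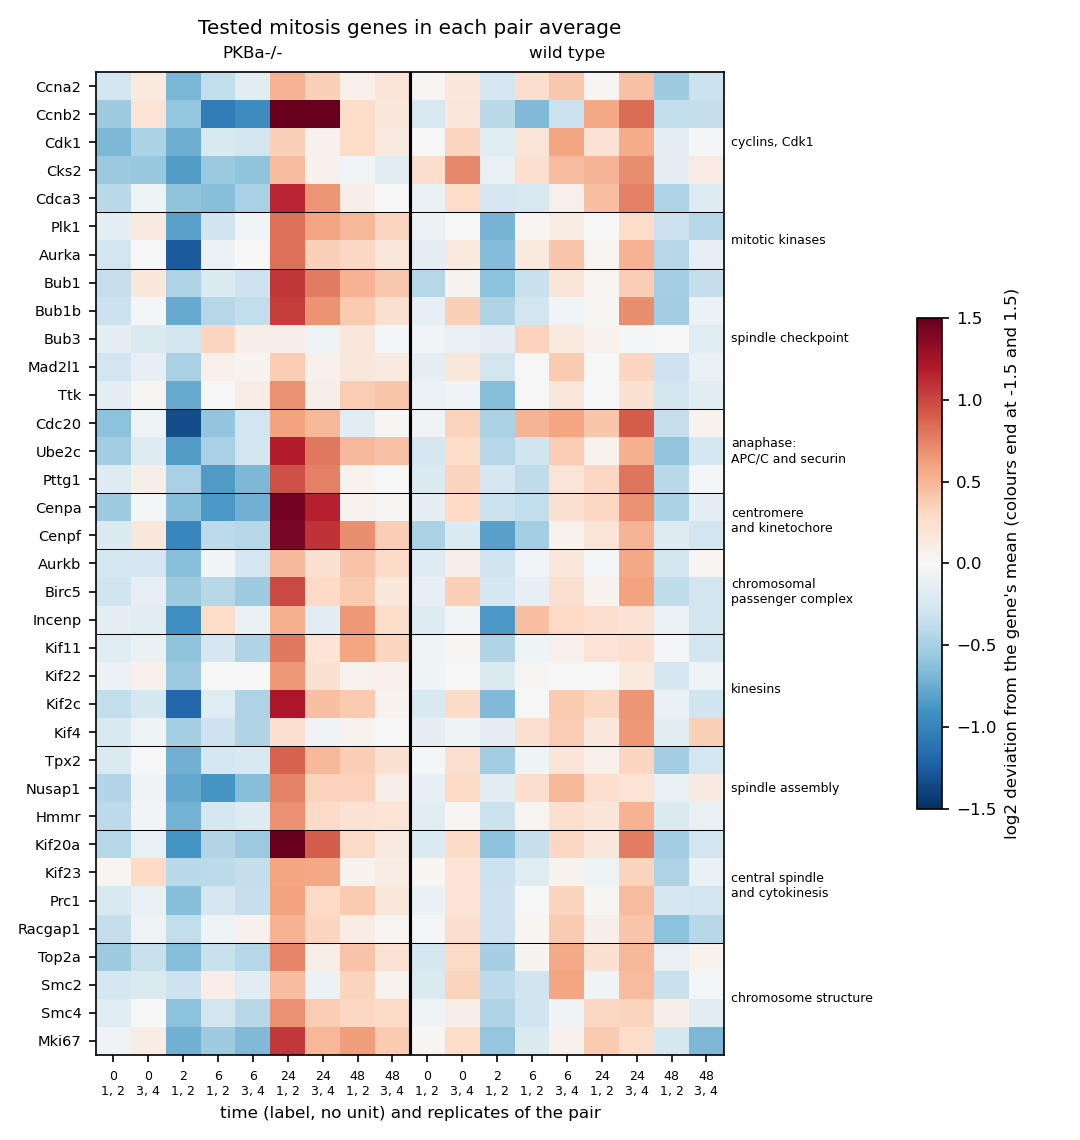
The 35 tested mitosis genes (rows, grouped by role) in each of 18 pair averages (columns, with time label and replicate numbers), PKBa-/- left of the line and wild type right of it. Colour gives the log2 deviation from the gene's mean over the columns. By mean level, the PKBa-/- time 24 column of replicates 1 and 2 is the reddest. The PKBa-/- time 24 column of replicates 3 and 4 (arrays at 0.366 and 0.417) lies below the wild type column of that time and those replicates (0.440 and 0.462). The PKBa-/- time 2 column is among the bluest, and Bub3 varies little.

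Between times 6 and 24 most of the mitosis genes rose in PKBa-/- cells. Of the 35 tested genes 26 were higher at time 24 than at time 6 and none was lower, with a median log2 change of 0.88; of all tested genes 8.61% rose, with a median change of 0.00. All 4 arrays of time 24 lay above all 4 of time 6 for 29 of the 35 genes, as they did for 19% of all genes. The median change was 1.05 in replicates 1 and 2 and 0.66 in replicates 3 and 4. Nearly every role took part: all 3 anaphase genes (Cdc20, Ube2c and Pttg1), both kinetochore genes, all 3 spindle assembly genes, both mitotic kinases, 4 of 5 cyclin and Cdk1 genes, 3 of 4 kinesins, 3 of 4 genes of the central spindle, 3 of 4 of chromosome structure, 2 of 5 checkpoint genes and 1 of 3 of the chromosomal passenger complex.

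Ccnb2, a B-type cyclin that activates Cdk1, changed most. Its signal in PKBa-/- arrays was 1609, 1526, 1281 and 1415 at time 24, against 221, 188, 214 and 229 at time 6. Time 24 exceeded time 6 by 2.60 ± 0.21 on the log2 scale (SE, adjusted p = 4.1e-05), a 6.07-fold change. Cenpa, the histone H3 variant that marks the centromere, read 1510, 1242, 1009 and 1259 at time 24 and 265, 239, 279 and 283 at time 6 (2.10 ± 0.24, adjusted p = 2.5e-04). Kif20a, a kinesin of the central spindle needed for cytokinesis, stood at 738, 682, 442 and 471 at time 24 and at 155, 163, 142 and 148 at time 6 (1.71 ± 0.27, adjusted p = 0.0017). In these 3 genes the arrays of the 2 times did not overlap, and replicates 1 and 2 were on average the higher pair at time 24. Cenpf, a large kinetochore protein of late G2 and mitosis, had 1316, 1100, 925 and 965 at time 24, against 354, 286, 284 and 334 at time 6 (1.67 ± 0.21, adjusted p = 4.6e-04). A dimmer Cenpf probe set, with a mean signal of 125, gave 0.45. Pttg1, which encodes securin, the inhibitor of separase, gave 4515, 3963, 3298 and 4040 at time 24, against 1208, 1156, 1360 and 1311 at time 6 (1.62 ± 0.24, adjusted p = 0.0011).

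Next in size were Cdca3, a trigger of mitotic entry (1.47 ± 0.20, adjusted p = 7.1e-04), Mki67, which encodes the proliferation antigen Ki-67 that coats mitotic chromosomes (1.37 ± 0.19, adjusted p = 9.5e-04), and Ube2c, the ubiquitin-conjugating enzyme of the anaphase-promoting complex (1.37 ± 0.25, adjusted p = 0.0039). The passing genes had 28 further probe sets, of which 26 had the same sign; the other 2 were dim Cdca3 probe sets with mean signals of 66.4 and 14.3. Bub3 (-0.19 ± 0.13, adjusted p = 0.34), Incenp, the scaffold of the chromosomal passenger complex (0.09 ± 0.21, adjusted p = 0.84), Mad2l1, the checkpoint protein that binds Cdc20 (0.17 ± 0.17, adjusted p = 0.59), and Smc2, a condensin core subunit (0.22 ± 0.29, adjusted p = 0.71), did not pass.

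**Figure D3:**
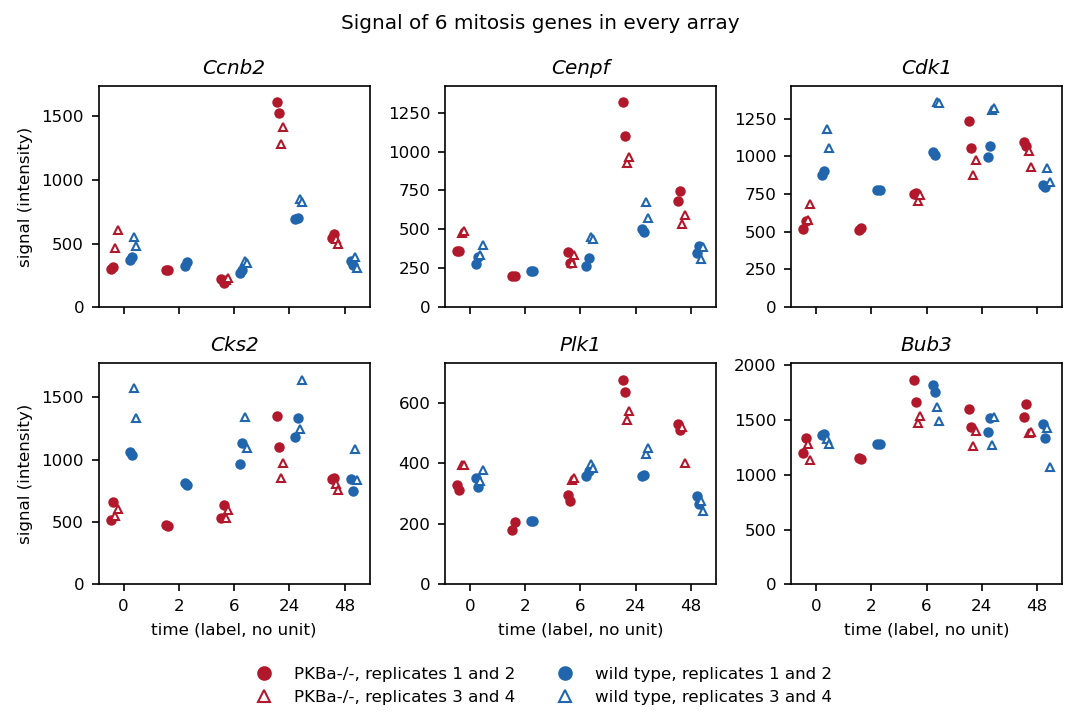
Signal (intensity, linear axis from 0) of Ccnb2, Cenpf, Cdk1, Cks2, Plk1 and Bub3 in every array against the time label, with PKBa-/- points left of wild type points at each time. Ccnb2 and Cenpf peak at time 24, most in PKBa-/-; Cdk1 and Cks2 of PKBa-/- lie below wild type at times 0 to 6; Bub3 stays between 1069 and 1871.

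In wild type cells 3 of 35 genes were higher at time 24 than at time 6 and none was lower, with a median of 0.19, and 4.68% of all genes rose. The count was 1 in 5 of 36 fits that left out an array (PKBa-/- time 0 replicate 2 or 3, PKBa-/- time 24 replicate 2, wild type time 48 replicate 2 or 3), and 1 with the mean of all probe sets. With arrays as replicates the count was 9, against 33.4% of all genes in either direction. All arrays of time 24 lay above those of time 6 for 8 of the 35, against 17.8% of all genes. Ccnb2 again led, with 694, 704, 847 and 827 at time 24 and 265, 288, 363 and 351 at time 6 (1.20 ± 0.21, adjusted p = 0.0066). Cdca3 (0.69 ± 0.20, adjusted p = 0.0499) and Smc4, the partner of Smc2 in condensin (0.50 ± 0.14, adjusted p = 0.044), passed as well. The arrays of the 2 times lay apart for Ccnb2 in both genotypes. Whether the step itself differed between genotypes was not tested; changes from time 0 were compared instead.

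Promoter windows are printed because the genes moved together and because the elements of late cell cycle genes are short. The windows, from RefSeq on GRCm38.p6, run from 120 bases before to 30 bases into the transcript, 5′ to 3′ on the gene's strand. Capitals mark TTTGAA, the core of the cell cycle genes homology region (CHR), which DREAM and B-Myb complexes bind, and CCAAT, the box bound by NF-Y, each also where it reads on the opposite strand. Ccnb2, Cenpa and Cenpf had the largest genotype differences at time 24; Cdc20 and Cdk1 were lower in PKBa-/- at time 6; Bub3 followed the others least. The windows are Ccnb2 at chr9:70421525-70421674 on the minus strand, Cenpa at chr5:30666766-30666915 on the plus strand, Cenpf at chr1:189688057-189688206 on the minus strand, Cdc20 at chr4:118437314-118437463 on the minus strand, Cdk1 at chr10:69352883-69353032 on the minus strand and Bub3 at chr7:131560250-131560399 on the plus strand.
Ccnb2: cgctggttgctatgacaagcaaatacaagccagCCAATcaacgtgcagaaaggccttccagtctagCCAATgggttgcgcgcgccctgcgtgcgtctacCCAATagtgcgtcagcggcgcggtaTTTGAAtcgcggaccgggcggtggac
Cenpa: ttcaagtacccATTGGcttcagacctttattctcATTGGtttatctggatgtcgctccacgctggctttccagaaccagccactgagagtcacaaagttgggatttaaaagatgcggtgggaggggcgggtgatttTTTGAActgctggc
Cenpf: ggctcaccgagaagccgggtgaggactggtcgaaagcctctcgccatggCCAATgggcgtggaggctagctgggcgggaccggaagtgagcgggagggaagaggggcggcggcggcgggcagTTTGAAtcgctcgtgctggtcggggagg
Cdc20: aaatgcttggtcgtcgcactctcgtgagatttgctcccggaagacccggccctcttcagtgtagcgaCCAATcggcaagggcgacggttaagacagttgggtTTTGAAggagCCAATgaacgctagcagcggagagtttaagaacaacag
Cdk1: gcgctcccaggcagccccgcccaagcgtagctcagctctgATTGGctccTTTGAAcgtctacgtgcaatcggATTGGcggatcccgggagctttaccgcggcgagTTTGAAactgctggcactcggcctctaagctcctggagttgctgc
Bub3: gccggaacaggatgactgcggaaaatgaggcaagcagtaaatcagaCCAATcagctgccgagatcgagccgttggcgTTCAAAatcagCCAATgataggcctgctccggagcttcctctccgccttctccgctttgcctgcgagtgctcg

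Of the 39 genes 32 had a promoter in the table, searched from 250 bases before to 50 bases after the start on both strands, in any of a gene's windows. TTTGAA stood in 24 of the 32 (75%), against 13.8% of 6056 tested genes with a promoter. Over all 27025 genes with a promoter the share was 20.2%, and over all 32851 promoter windows 17.9%. Within 50 bases of the start it lay in 22 of the 32 (68.8%, against 3.67% of the tested genes). CCAAT stood in 27 of the 32 (84.4%), against 42.6% of tested genes and 37.4% of all windows. In a second list of mitosis genes, described below, 35.8% of 67 had TTTGAA and 50.7% CCAAT. Among 36 DNA replication genes these shares were 16.7% and 55.6%. As spelled, 2 matches of different motifs could overlap by 1 base. A match is a description of letters, not of a bound site. Among the tested members, those with TTTGAA changed by a median of 0.85 between times 6 and 24 in PKBa-/- cells (n = 23) and those without it by 1.15 (n = 6), with ranges of -0.19 to 2.60 and 0.17 to 1.62 that overlap. Bub3, at -0.19, carries both motifs, while Pttg1, at 1.62, has no TTTGAA in its windows.

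**Figure D4:**
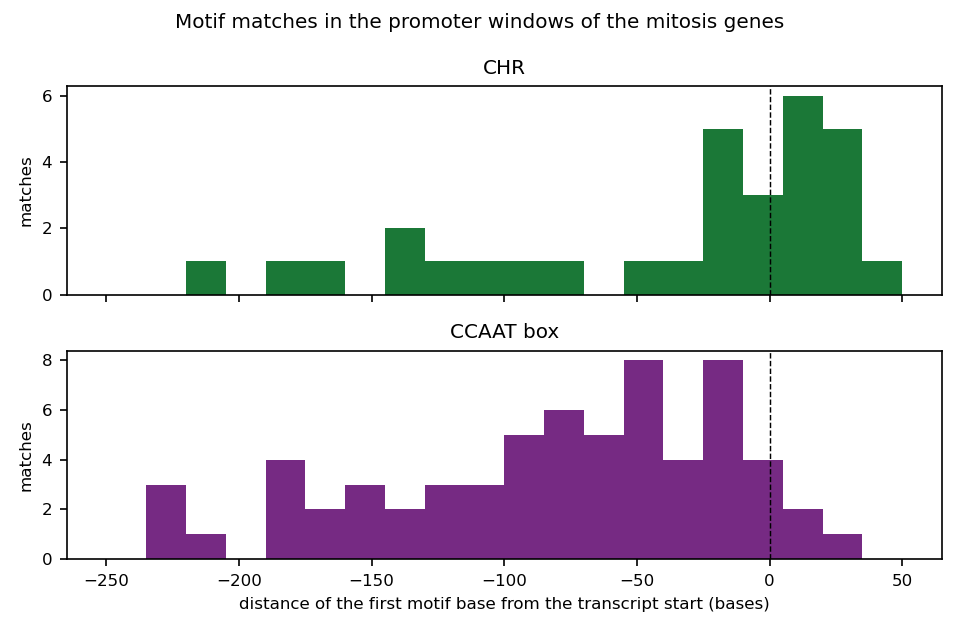
Number of TTTGAA (CHR, top) and CCAAT (bottom) matches against distance from the transcript start, in bases, in 1 promoter window for each mitosis gene with a match; the dashed line is the start. CHR matches gather around the start and CCAAT matches mostly before it.

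At time 0 PKBa-/- cells had less RNA of 2 mitosis genes, and none was higher. This compares with 8.42% of all genes lower; the median difference of the 35 was -0.21. Cks2, the small adaptor subunit of Cdk1, read 512, 657, 549 and 607 in PKBa-/- arrays and 1062, 1035, 1572 and 1335 in wild type arrays (-1.05 ± 0.17, adjusted p = 0.0012). Cdk1, the kinase that drives entry into mitosis, read 517, 570, 580 and 685 in PKBa-/- arrays and 879, 899, 1182 and 1058 in wild type arrays (-0.74 ± 0.17, adjusted p = 0.012). The genotypes did not overlap in either gene, while the kinase Plk1 (0.03 ± 0.14) and the checkpoint kinase Ttk (0.01 ± 0.17) were near 0 with adjusted p of 0.91 and 0.97. Most of the 35 leaned the same way, with 29 below 0 and 6 above.

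By time 2 the genes were lower than at time 0 in both genotypes, all 35 of them in each, but few passed with 1 pair of arrays. In PKBa-/- cells 2 of 35 fell (1.24% of all genes did), with a median of -0.48. Aurka, the centrosomal Aurora kinase, had 115 and 133 at time 2, against 269, 277, 297 and 383 at time 0 (-1.11 ± 0.25, adjusted p = 0.030). Plk1 had 179 and 206 at time 2, against 327, 312, 395 and 394 at time 0 (-0.79 ± 0.18, adjusted p = 0.030). In wild type cells no member passed (2.73% of all genes did in either direction), and the median was -0.44. There 11 had an unadjusted p under 0.05 in limma, against 1037 of 7436 tested genes. Arrays as replicates gave 15, against 17.9% of all genes. Within replicates 1 and 2, which alone have time 2, the medians were -0.36 in PKBa-/- and -0.24 in wild type. Between genotypes at time 2, 33 of 35 were below 0 with a median of -0.27, and no member passed (5.82% of all genes did). An unadjusted p under 0.05 was found for 4 members, against 1317 of 7436 tested genes. With arrays as replicates 6 passed, against 23.6% of all genes. The change by time 2 differed between genotypes in no member (0.242% of all genes), with none at an unadjusted p under 0.05.

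At time 6 all 35 genes were lower in PKBa-/- than in wild type cells by their fitted values, with a median of -0.37, and 6 of them passed, against 8.07% of all genes. The 4 arrays of each genotype did not overlap for 22 of the 35, all lower in PKBa-/-, against 18.4% of all genes. The median difference was -0.22 in replicates 1 and 2 and -0.56 in replicates 3 and 4. Nusap1, which binds and bundles spindle microtubules, read 126, 120, 140 and 166 in PKBa-/- arrays and 301, 322, 362 and 382 in wild type arrays (-1.14 ± 0.19, adjusted p = 0.0015). Cdc20, the activator of the anaphase-promoting complex, read 537, 540, 651 and 700 in PKBa-/- arrays and 1185, 1191, 1244 and 1277 in wild type arrays (-0.98 ± 0.22, adjusted p = 0.0087). In both genes all PKBa-/- arrays lay well under all wild type arrays, in each replicate pair.

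Cks2 at time 6 read 533, 632, 532 and 592 in PKBa-/- arrays and 964, 1134, 1341 and 1092 in wild type arrays (-0.94 ± 0.17, adjusted p = 0.0025). Cdk1 read 747, 758, 705 and 745 in PKBa-/- arrays and 1029, 1011, 1357 and 1355 in wild type arrays (-0.65 ± 0.17, adjusted p = 0.023). The gap of these 2 genes at time 0 was thus still present. Kif4 (-0.69 ± 0.19, adjusted p = 0.025) and Ccna2, the cyclin of S phase and early mitosis (-0.60 ± 0.17, adjusted p = 0.030), were lower too. Cenpa (-0.72 ± 0.24, adjusted p = 0.056), Top2a, the topoisomerase that untangles sister chromatids (-0.69 ± 0.24, adjusted p = 0.067), and Pttg1 (-0.67 ± 0.24, adjusted p = 0.074) did not pass, and neither did Mki67 (-0.52 ± 0.19, adjusted p = 0.090).

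Relative to time 0, PKBa-/- cells at time 6 had 3 members lower (9.78% of all genes) and 1 higher (8.62%). Ccnb2 fell to 221, 188, 214 and 229, against 298, 313, 463 and 603 at time 0 (-0.83 ± 0.21, adjusted p = 0.019). Mki67 (-0.62 ± 0.19, adjusted p = 0.042) and Kif23, the motor of the centralspindlin complex (-0.54 ± 0.16, adjusted p = 0.035), fell as well. Bub3 went the other way, with 1871, 1661, 1477 and 1534 at time 6 and 1202, 1339, 1280 and 1132 at time 0 (0.39 ± 0.13, adjusted p = 0.049). In wild type cells no member passed in this step, while 12% of all genes did. An unadjusted p under 0.05 was found for 3 members, against 1979 of 7436 tested genes. Arrays as replicates gave 5, against 36.3% of all genes. The change by time 6 differed between genotypes in no member, against 0.551% of all genes, with 2 at an unadjusted p under 0.05. With arrays as replicates 2 passed, against 8.82% of all genes.

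At time 24, 20 of 35 genes were above their time 0 level in PKBa-/- cells, and 2.8% of all genes were, with a median of 0.75. Ccnb2 (1.77 ± 0.21, adjusted p = 5.9e-04), Cenpa (1.58 ± 0.24, adjusted p = 0.0022), Kif20a (1.48 ± 0.27, adjusted p = 0.0066) and Ube2c (1.34 ± 0.25, adjusted p = 0.0086) led. Cenpf (1.28 ± 0.21, adjusted p = 0.0034), Kif2c (1.15 ± 0.25, adjusted p = 0.018), Cdca3 (1.14 ± 0.20, adjusted p = 0.0050) and Bub1b, which encodes the checkpoint protein BubR1 (1.03 ± 0.24, adjusted p = 0.023), rose with them. In wild type cells all 35 were above 0 with a median of 0.24, and none passed, against 5.68% of all genes in either direction. There 6 had an unadjusted p under 0.05, against 1434 of 7436 tested genes. Arrays as replicates gave 11, against 27.1% of all genes. The change by time 24 differed between genotypes by a median of 0.50, and this difference was above 0 for 33 of 35 genes. Its median was 0.78 in replicates 1 and 2 and 0.18 in replicates 3 and 4. None of them passed (0.726% of all genes did), and 11 had an unadjusted p under 0.05. With arrays as replicates 11 passed (8.24% of all genes), and with the pair as a random effect 4 (2.1%). A block for replicate set gave 1 (1.68% of all genes), and a block for set within genotype 7 (6.01%).

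The genotypes themselves differed at time 24 in 5 of 35 genes, all higher in PKBa-/-, against 9.79% of all genes higher. Cenpf had 1316, 1100, 925 and 965 in PKBa-/- arrays and 503, 480, 676 and 574 in wild type arrays (0.91 ± 0.21, adjusted p = 0.0083). The dimmer Cenpf probe set, with a mean signal of 125, gave a smaller difference of 0.21. Ccnb2 had 1609, 1526, 1281 and 1415 in PKBa-/- arrays and 694, 704, 847 and 827 in wild type arrays (0.90 ± 0.21, adjusted p = 0.011). Cenpa had 1510, 1242, 1009 and 1259 in PKBa-/- arrays and 578, 640, 838 and 759 in wild type arrays (0.81 ± 0.24, adjusted p = 0.029). In these 3 genes every PKBa-/- array lay above every wild type array, in replicates 3 and 4 too, although by less there. Bub1 (0.73 ± 0.22, adjusted p = 0.033) and Plk1 (0.57 ± 0.14, adjusted p = 0.015) were the others.

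The rest of the set depended on the pair at time 24. The median difference of the 35 genes was 0.64 in replicates 1 and 2, where 34 were above 0, and -0.08 in replicates 3 and 4, where 13 were. Fitted alone, replicates 1 and 2 called 31 genes higher and none lower, where 57.5% of all genes were called in either direction. Replicates 3 and 4 alone called 6 higher and 10 lower, where 49.3% of all genes were called. Arrays as replicates called 13 higher and 2 lower, where 42.7% of all genes were called. Over all arrays 10 of the 35 had every PKBa-/- array above every wild type array, against 17.1% of all genes. Birc5, which encodes survivin, shows the split, with 1134, 1005, 587 and 714 in PKBa-/- arrays and 494, 595, 801 and 820 in wild type arrays (0.31 ± 0.24, adjusted p = 0.42). Ube2c (0.69 ± 0.25, adjusted p = 0.076) and Kif20a (0.74 ± 0.27, adjusted p = 0.071) did not pass, nor did Cks2, the lowest of the set (-0.34 ± 0.17, adjusted p = 0.20).

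At time 48 the mitosis genes were higher in PKBa-/- cells. Of the 35 genes 12 were higher in PKBa-/- and none was lower, with a median of 0.48, and 12.4% of all genes were higher. All 4 PKBa-/- arrays lay above all 4 wild type arrays for 25 of the 35, against 22% of all genes. The median was 0.62 in replicates 1 and 2 and 0.32 in replicates 3 and 4, with 35 and 31 genes above 0. Those that passed came from every role, with 1 or 2 genes from each.

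Mki67 read 589, 656, 502 and 549 in PKBa-/- arrays at time 48 and 346, 296, 262 and 208 in wild type arrays (0.98 ± 0.19, adjusted p = 0.0031). Ube2c read 1353, 1364, 1327 and 1299 in PKBa-/- arrays and 621, 626, 862 and 729 in wild type arrays (0.90 ± 0.25, adjusted p = 0.024). Bub1 read 375, 418, 320 and 409 in PKBa-/- arrays and 179, 178, 235 and 170 in wild type arrays (0.89 ± 0.22, adjusted p = 0.011). The genotypes stood clear of each other in these 3 genes, and PKBa-/- Ube2c varied little from array to array. Plk1 read 528, 508, 520 and 399 in PKBa-/- arrays and 292, 266, 276 and 241 in wild type arrays (0.79 ± 0.14, adjusted p = 0.0019). Cenpf (0.78 ± 0.21, adjusted p = 0.017), Tpx2 (0.69 ± 0.16, adjusted p = 0.0099), Incenp (0.65 ± 0.21, adjusted p = 0.041) and Ttk (0.62 ± 0.17, adjusted p = 0.018) followed. The dimmer Cenpf probe set gave 0.07 here. Ccnb2 (0.58 ± 0.21, adjusted p = 0.073), Bub1b (0.62 ± 0.24, adjusted p = 0.079), Birc5 (0.60 ± 0.24, adjusted p = 0.094) and Kif20a (0.60 ± 0.27, adjusted p = 0.13) did not pass.

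**Figure D5:**
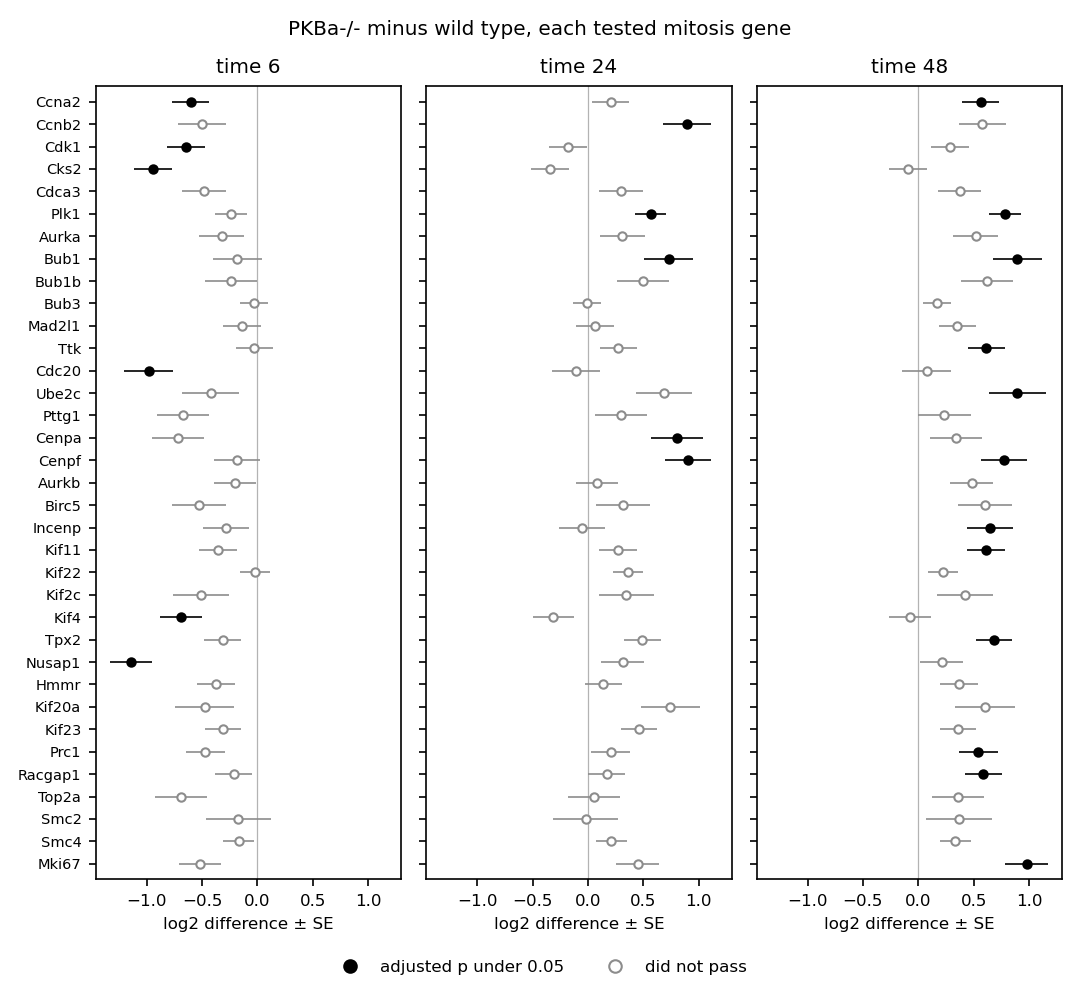
Log2 difference of each of the 35 tested mitosis genes, PKBa-/- minus wild type, at times 6, 24 and 48, with bars of 1 SE from the limma fit; black points passed (adjusted p under 0.05) and open points did not. At time 6 all points lie below 0 and 6 passed, at time 24 5 passed above 0, and at time 48 12 did.

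Late in the course the set stood lower than at time 24 in wild type cells, by a median of -0.56 with 35 of 35 below 0. All 4 arrays of time 48 lay below all 4 of time 24 for 27 of the 35, against 4.4% of all genes. No gene on the array passed in that comparison (0% of all genes), so adjusted p says little here. Of the 35, 25 had an unadjusted p under 0.05. Arrays as replicates gave 24, against 1.71% of all genes. Against time 0, wild type cells at time 48 had 1 member lower (3.9% of all genes), Racgap1, the GTPase-activating protein of centralspindlin, with 380, 414, 419 and 504 at time 48 and 609, 612, 721 and 795 at time 0 (-0.63 ± 0.17, adjusted p = 0.046). That call was lost in 8 of 36 fits that left out 1 array. PKBa-/- cells at time 48 had a median of -0.35 against time 24, with no member passing (0.0269% of all genes) and 12 at an unadjusted p under 0.05. Arrays as replicates gave 15, against 7.88% of all genes.

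Members spread out in that last PKBa-/- step. Ccnb2 gave 542, 576, 532 and 495 at time 48, against 1609, 1526, 1281 and 1415 at time 24 (-1.39 ± 0.21, adjusted p = 0.054). Cenpa gave -1.27 ± 0.24 (adjusted p = 0.089) and Kif20a -1.01 ± 0.27 (adjusted p = 0.22). Cdk1 gave 1094, 1065, 1032 and 927 at time 48 and 1236, 1052, 875 and 975 at time 24 (0.00 ± 0.17, from limma), and its arrays of the 2 times overlapped. Against time 0, PKBa-/- Cdk1 was the 1 member that passed at time 48 (0.78 ± 0.17, adjusted p = 0.016), against 3.07% of all genes that rose. The median of the 35 was 0.43, and 17 had an unadjusted p under 0.05, against 1591 of 7436 tested genes. The count of members passing was 8 with the pair as a random effect (12.3% of all genes) and 25 with arrays as replicates (29.4% of all genes). It was 2 without PKBa-/- time 24 replicate 1 or 3, and 3 without PKBa-/- time 0 or time 48 replicate 4. Between genotypes, the change from time 0 to time 48 differed by a median of 0.70, with 34 of 35 above 0 and medians of 0.78 and 0.62 in the 2 replicate pairs. None passed (1.14% of all genes did) and 24 had an unadjusted p under 0.05. With the pair as a random effect 9 passed (4.13% of all genes), and with arrays as replicates 27 (14.3%). With replicate set as a block within genotype 22 passed, against 11.1% of all genes. The nearest were Cdk1 (1.02 ± 0.24, adjusted p = 0.075), Mki67 (1.09 ± 0.27, adjusted p = 0.091) and Cks2 (0.96 ± 0.24, adjusted p = 0.095).

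The members that stayed under the signal limit are given by value. Cdc25c, the phosphatase that activates Cdk1, read 207, 180, 146 and 151 in PKBa-/- arrays at time 24 and 99.8, 103, 117 and 114 in wild type arrays. Ect2, the exchange factor that triggers the cleavage furrow, read 67.8, 82.5, 87.5 and 79.0 in PKBa-/- arrays at time 0 and 163, 164, 179 and 169 in wild type arrays. Ect2 was thus lower in PKBa-/- at time 0 in every array, and Cdc25c higher at time 24 in every array. Nek2, a centrosomal kinase, peaked at 82.3, 86.1, 93.4 and 77.4 in PKBa-/- arrays of time 24, with 53.5, 50.6, 55.4 and 66.3 in wild type arrays. Cenpe, the kinetochore kinesin, stayed between 15.8 and 52.3, near the lowest signals of the array.

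Bub3 was described at the remaining times because it followed the others least. It read 1202, 1339, 1280 and 1132 in PKBa-/- arrays at time 0 and 1362, 1374, 1325 and 1278 in wild type arrays. At time 24 the values were 1601, 1433, 1264 and 1402 in PKBa-/- arrays and 1394, 1522, 1270 and 1528 in wild type arrays (0.00 ± 0.13, adjusted p = 0.99). The genotypes overlapped at both times. Aurka ended higher in PKBa-/- at time 48 by 0.52 ± 0.20 without passing (adjusted p = 0.085), with 406, 448, 408 and 358 in PKBa-/- arrays and 257, 227, 308 and 303 in wild type arrays. Top2a read 1118, 1116, 925 and 994 in PKBa-/- arrays at time 48 and 797, 712, 929 and 783 in wild type arrays (0.36 ± 0.24, adjusted p = 0.31), and there the arrays of the genotypes overlapped.

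The whole course of 5 further genes is given as the lowest to the highest signal at times 0, 2, 6, 24 and 48. Cdc20 signal ran over 509 to 784, 289 to 333, 537 to 700, 1051 to 1341 and 709 to 925 in PKBa-/- arrays, against 800 to 1062, 572 to 607, 1185 to 1277, 1100 to 1848 and 638 to 876 in wild type arrays. Plk1 signal ran over 312 to 395, 179 to 206, 275 to 352, 542 to 676 and 399 to 528 in PKBa-/- arrays, against 321 to 379, 209 to 209, 358 to 397, 357 to 451 and 241 to 292 in wild type arrays. Aurka signal ran over 269 to 383, 115 to 133, 299 to 351, 431 to 649 and 358 to 448 in PKBa-/- arrays, against 296 to 381, 184 to 222, 372 to 472, 341 to 505 and 227 to 308 in wild type arrays. These 3 genes were lowest at time 2 and highest at time 24 in PKBa-/- arrays. Top2a signal ran over 504 to 646, 504 to 523, 580 to 710, 814 to 1429 and 925 to 1118 in PKBa-/- arrays, against 658 to 1016, 553 to 586, 835 to 1243, 931 to 1173 and 712 to 929 in wild type arrays. Mki67 signal ran over 339 to 497, 212 to 238, 224 to 271, 557 to 963 and 502 to 656 in PKBa-/- arrays, against 379 to 487, 239 to 267, 308 to 441, 456 to 527 and 208 to 346 in wild type arrays. Ranges of PKBa-/- arrays lay wholly above those of wild type arrays at time 48 for Plk1, Aurka and Mki67, and overlapped for Cdc20 and Top2a.

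A second list of 79 mitosis genes outside the 41, with 66 tested, was set beside them. Between times 6 and 24 in PKBa-/- cells 18 rose and 2 fell, with a median of 0.28, where 8.61% of all genes rose and 9.2% fell. Ncapd2, a condensin subunit (1.49 ± 0.16, adjusted p = 1.8e-04), Aspm, a spindle pole protein (1.38 ± 0.20, adjusted p = 0.0011), Anln, which encodes anillin of the cleavage furrow (1.25 ± 0.18, adjusted p = 0.0011), and Cdc25b, a Cdk1 activator (1.01 ± 0.17, adjusted p = 0.0021), rose most. The kinetochore genes Zwint (-0.93 ± 0.13, adjusted p = 7.7e-04) and Zw10 (-0.43 ± 0.11, adjusted p = 0.022) fell. At time 48, 17 of the 66 were higher in PKBa-/- than in wild type (12.4% of all genes) and none was lower, led by Ccnf, the cyclin of an SCF ubiquitin ligase (0.96 ± 0.13, adjusted p = 2.5e-04), Pbk, a mitotic kinase (0.79 ± 0.19, adjusted p = 0.0092), Ncapd2 (0.78 ± 0.16, adjusted p = 0.0038) and Kifc1, a minus-end kinesin (0.75 ± 0.21, adjusted p = 0.021).

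DNA replication genes were read beside them. Their level, too, was lowest at time 2 in both genotypes, at -0.527 and -0.504 in PKBa-/- arrays and at -0.345 and -0.281 in wild type arrays. Between times 6 and 24 in PKBa-/- cells 2 of 37 rose (8.61% of all genes) and 8 fell (9.2%), with a median of -0.27; the median of the mitosis genes was 0.88, and the difference between the lists was not tested. Cdt1, the licensing factor (-1.14 ± 0.19, adjusted p = 0.0025), Rpa2, of the single-strand binding complex (-0.96 ± 0.20, adjusted p = 0.0063), the helicase subunit gene Mcm2 (-0.90 ± 0.22, adjusted p = 0.014) and Rrm2, of ribonucleotide reductase (-0.79 ± 0.21, adjusted p = 0.021), fell most. By time 6, 8 of the 37 had risen in PKBa-/- cells from time 0 (8.62% of all genes), led by Rrm2 (1.36 ± 0.21, adjusted p = 0.0011). At time 48 in PKBa-/- cells 8 of the 37 were above time 0 (3.07% of all genes) and 9 were above wild type (12.4%), led by Uhrf1, which recognises hemimethylated DNA at the fork (1.20 ± 0.26, adjusted p = 0.0060). The change by time 48 differed between genotypes by a median of 0.69 over the 37, with none passing and 26 at an unadjusted p under 0.05 in limma, and by 0.70 over the mitosis genes. At time 0, 7 of the 37 were lower in PKBa-/- (8.42% of all genes), with Gmnn, the inhibitor of Cdt1, at -1.24 ± 0.17 (adjusted p = 3.6e-04).

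Regulators of these genes were read as well. Foxm1, the activator of late cell cycle genes, was higher in PKBa-/- at time 48 (0.37 ± 0.11, adjusted p = 0.025), and did not pass at times 0, 6 and 24 (-0.02 ± 0.11, -0.09 ± 0.11 and 0.06 ± 0.11). E2f6, a repressor of the E2F family, was lower in PKBa-/- at times 0, 6, 24 and 48, by -0.56 ± 0.14, -0.46 ± 0.14, -0.75 ± 0.14 and -0.57 ± 0.14. Rbl2, which encodes the DREAM pocket protein p130, was higher in PKBa-/- at time 6 (0.64 ± 0.18, adjusted p = 0.027). E2f1 did not pass (0.38 ± 0.13 at time 48, adjusted p = 0.052). Of the cyclins that drive G1, Ccnd3 was higher in PKBa-/- at times 0, 6, 24 and 48 (0.64 ± 0.13, 0.44 ± 0.13, 0.56 ± 0.13 and 0.52 ± 0.13) and Ccne1 at times 6 and 48 (0.49 ± 0.11 and 0.58 ± 0.11). The inhibitor genes Cdkn1b (0.52 ± 0.14, adjusted p = 0.024) and Cdkn2b (1.14 ± 0.28, adjusted p = 0.012) were higher in PKBa-/- at time 24. Cdkn2c was lower at time 6 (-0.80 ± 0.17, adjusted p = 0.0063). Cdkn1a (-0.44 to -0.62 at times 0, 6, 24 and 48), Ccnd1 (-0.10 to -0.91) and Ccnd2 (-0.18 to 0.50) did not pass between genotypes. The part of these regulators in the levels of the mitosis genes was not tested.

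Outside the 41 genes, those whose profile over the 18 pair averages was nearest to the members' mean were Ckap2, a spindle protein (r = 0.966), Aspm (0.921), Shcbp1, a partner of the adaptor Shc1 (0.913), and Tacc3, which crosslinks spindle microtubules (0.909). Brd8 (0.888), Ncaph (0.884), Hmgb2 (0.881), Ncapd2 (0.880), Mastl (0.874) and Sgo1 (0.855) came next. Of these 10, 8 are on the second list of mitosis genes; Shcbp1 and Brd8 are not. The 3' to 5' signal ratio, a measure of RNA integrity, ran from 0.771 to 1.02 for Gapdh, with medians of 0.882 in replicates 1 and 2 and 0.809 in replicates 3 and 4. For b-Actin it ran from 1.17 to 1.58, with medians of 1.35 in replicates 1 and 2 and 1.25 in replicates 3 and 4. It was 1.32 to 1.56 in PKBa-/- arrays of time 48 and 1.17 to 1.58 in wild type arrays of time 48. Its part in the differences was not tested.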

How the data were processed

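RNA of 36 fibroblast samples was read on Affymetrix arrays from biotinylated cRNA, per the labels' protocols. The values are linear intensities of 22690 probe sets, deposited by the authors at a common level (array medians 134 to 145); their summary and normalization are not stated. They were used as log2(signal + 32) with no further normalization. Probe sets of 1 gene numbered 20380, of several genes 691, and without a gene 1555; each gene took its brightest probe set, and the lowest 40% of 12393 genes were not tested.

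Arrays of replicates 1 and 2, and of 3 and 4, were averaged within each group. The 18 averages were fitted with limma 3.58.1 (R 4.3.3) as 10 group means, with 8 residual degrees of freedom and Benjamini-Hochberg adjustment within each of 21 comparisons at 0.05. All later p-values are limma's, SE is its standard error, and a fold change on this scale understates dim genes. The labels do not say what the pairs are. Tested on simulated data (PKBa-/- minus wild type at time 48, 7436 genes), the fit recovered 50.7% of 1.5-fold and 83.6% of 2-fold changes with 4 false calls, and arrays as replicates gave 349. The simulated pairs deviated independently of each other, as the fit assumes. In the data, deviations of a replicate set were partly shared between times, so these false call counts may not hold for the data.

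The members and lists were chosen with earlier results of these data known. Named were up to 8 members that passed and 4 that did not in each comparison, Cdc20, Plk1, Aurka, Top2a, Mki67 and Bub3 throughout, up to 4 genes of each other list in each direction, named regulators, and the 10 genes nearest in profile. Mybl2, Lin9, Rbl1, Cdkn1c and Ccne2 were under the limit for testing. Alternatives were other replicate units and blocks, offsets, filters, quantile normalization, all probe sets, and leaving out arrays. Python 3.11.15 with pandas 2.3.3 and numpy 2.4.6 did the rest.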

Additional observations from a re-analysis of the deposited data

Results flagged for a closer look

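Within groups of 4 arrays, 7 signals of mitosis genes stood far from the other 3; 312 groups were looked at, and chance flags about 1 in 20. In PKBa-/- arrays of time 48, replicate 4 was low for Plk1 at 399, replicate 3 was low for Ect2 at 73.9, and replicate 1 was high for Aurkb at 302. In wild type arrays, replicate 1 of time 0 was low for Cdc25c at 84.0, replicate 4 of time 6 was high for Nek2 at 58.4, replicate 4 of time 24 was high for Kif11 at 247, and replicate 3 of time 48 was high for Bub1 at 235. Plk4, the kinase that starts centriole duplication and a gene of the second mitosis list, changed differently between the genotypes by time 48, with a log2 difference of 1.09 ± 0.22 by the interaction term (limma, adjusted p = 0.0387).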

How the results depend on the processing

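Counts below are mitosis genes passing, where they moved by over 1.5 times. The share of all genes passing moved too. Between genotypes at times 0, 2, 6, 24 and 48 it was 14.9%, 5.82%, 16.6%, 20.5% and 23.3% in the fit of pair averages. With arrays as replicates it was 41.4%, 23.6%, 39.6%, 42.7% and 47%. In replicates 1 and 2 alone it was 46.9%, 49.4%, 52.8%, 57.5% and 56.5%. Replicates 3 and 4 alone gave 48.8%, 43.6%, 49.3% and 47.4% at times 0, 6, 24 and 48. A count near or under such a share is no result about the mitosis genes. Arrays as replicates gave 7, 6, 23, 15 and 25 between genotypes at times 0, 2, 6, 24 and 48; 19, 11, 31 and 25 in PKBa-/- from time 0 by times 2, 6, 24 and 48; 15, 5, 11 and 12 in wild type from time 0 by times 2, 6, 24 and 48; 2, 11 and 27 for the difference in change by times 6, 24 and 48; 15 in PKBa-/- from 24 to 48; 9 in wild type from 6 to 24; 24 in wild type from 24 to 48. The pair as a random effect gave 1, 13 and 10 between genotypes at times 2, 6 and 24; 8 and 8 in PKBa-/- from time 0 by times 2 and 48; 3, 1, 2 and 4 in wild type from time 0 by times 2, 6, 24 and 48; 4 and 9 for the difference in change by times 24 and 48; 6 in PKBa-/- from 24 to 48; 6 in wild type from 6 to 24; 4 in wild type from 24 to 48. Replicates 1 and 2 alone gave 14, 20, 20, 31 and 32 between genotypes at times 0, 2, 6, 24 and 48; 24, 14, 35 and 33 in PKBa-/- from time 0 by times 2, 6, 24 and 48; 19, 13, 19 and 16 in wild type from time 0 by times 2, 6, 24 and 48; 1, 6, 32 and 33 for the difference in change by times 2, 6, 24 and 48; 26 in PKBa-/- from 24 to 48; 18 in wild type from 6 to 24; 30 in wild type from 24 to 48. Replicates 3 and 4 alone, with no time 2, gave 17, 31, 16 and 21 between genotypes at times 0, 6, 24 and 48; 17 and 9 in PKBa-/- from time 0 by times 6 and 48; 5, 15 and 23 in wild type from time 0 by times 6, 24 and 48; 11, 6 and 24 for the difference in change by times 6, 24 and 48; 12 in PKBa-/- from 24 to 48; 11 in wild type from 6 to 24; 31 in wild type from 24 to 48. An offset of 64 gave 1 in PKBa-/- from 24 to 48. No filter gave 1 between genotypes at time 2; 1 in PKBa-/- from 24 to 48. Leaving out the lowest 20% gave 1 between genotypes at time 2; 2 in wild type from time 0 by time 48; 1 in PKBa-/- from 24 to 48. Quantile normalization gave 4 and 5 in PKBa-/- from time 0 by times 2 and 48; 2 and 2 in wild type from time 0 by times 6 and 24; 1 for the difference in change by time 48; 1 in PKBa-/- from 24 to 48. The mean of all probe sets gave 2 and 3 in PKBa-/- from time 0 by times 6 and 48; 1 and 1 in wild type from time 0 by times 6 and 24; 1 for the difference in change by time 48; 1 in wild type from 6 to 24. With arrays as replicates the share of all genes from time 0 by times 2, 6, 24 and 48 was 15.4%, 40.4%, 26.5% and 29.4% in PKBa-/-. In wild type it was 17.9%, 36.3%, 27.1% and 28.7%. The cause of these moves was not tested. Of the calls between genotypes at time 24, those in replicates 3 and 4 alone were 6 higher and 10 lower in PKBa-/-. Fits within 1 set have only the arrays of a pair as replicates and were not simulated.

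Equal replicate numbers did not pair samples between genotypes: deviations of same-numbered arrays correlated there at -0.215 to 0.439 (median 0.112). Within a genotype, deviations correlated at a median of 0.465 for the same number, 0.4 for the other number of the same set and -0.431 across sets. Deviations of a set were thus partly shared between the times of a genotype. The main fit takes the 18 pair averages as independent, so its p-values do not account for this sharing. The replicate block by set (1 and 2 against 3 and 4) gave 1 and 9 between genotypes at times 2 and 24; 5 and 6 in PKBa-/- from time 0 by times 2 and 48; 2, 1, 3 and 5 in wild type from time 0 by times 2, 6, 24 and 48; 1 and 6 for the difference in change by times 24 and 48; 4 in PKBa-/- from 24 to 48; 5 in wild type from 6 to 24. The replicate block by set within genotype gave 4, 19 and 29 between genotypes at times 2, 24 and 48; 17, 8, 32 and 24 in PKBa-/- from time 0 by times 2, 6, 24 and 48; 5, 4, 8 and 9 in wild type from time 0 by times 2, 6, 24 and 48; 2, 7 and 22 for the difference in change by times 6, 24 and 48; 10 in PKBa-/- from 24 to 48; 8 in wild type from 6 to 24; 13 in wild type from 24 to 48. The replicate block by number over arrays gave 9, 6, 24, 21 and 27 between genotypes at times 0, 2, 6, 24 and 48; 18, 12, 33 and 27 in PKBa-/- from time 0 by times 2, 6, 24 and 48; 15, 6, 14 and 16 in wild type from time 0 by times 2, 6, 24 and 48; 6, 18 and 28 for the difference in change by times 6, 24 and 48; 17 in PKBa-/- from 24 to 48; 10 in wild type from 6 to 24; 26 in wild type from 24 to 48.

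Leaving out each of 36 arrays in turn gave 6 to 7 between genotypes at time 6, 5 to 6 at time 24 and 10 to 13 at time 48, 1 to 3, 2 to 5, 18 to 24 and 1 to 3 in PKBa-/- from time 0 by times 2, 6, 24 and 48, 0 to 1 and 0 to 1 in wild type by times 24 and 48, 24 to 26 in PKBa-/- from 6 to 24, 0 to 1 from 24 to 48 and 1 to 3 in wild type from 6 to 24. The PKBa-/- count by time 2 was 1 without PKBa-/- time 2 replicate 1. By time 6 it was 2 without PKBa-/- time 6 replicate 1, PKBa-/- time 24 replicate 2 or wild type time 48 replicate 2 or 3. By time 48 it was 2 without PKBa-/- time 24 replicate 1 or 3, and 3 without PKBa-/- time 0 replicate 4 or time 48 replicate 4. The wild type count by time 24 was 1 without PKBa-/- time 0 replicate 4 or wild type time 0 replicate 3. By time 48 it was 0 without PKBa-/- time 0 replicate 4, time 6 replicate 1 or time 24 replicate 4, or wild type time 0 replicate 4, time 6 replicate 2, time 24 replicate 1 or time 48 replicate 1 or 3. The wild type count from 6 to 24 was 1 without PKBa-/- time 0 replicate 2 or 3, PKBa-/- time 24 replicate 2 or wild type time 48 replicate 2 or 3. That in PKBa-/- from 24 to 48 was 1 in 17 of the 36 fits.

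Of 82 calls on single mitosis genes none reversed under any alternative run. Without a filter 71 still passed, and with the mean of all probe sets 66 of the 76 that had a value. Depth is limited by the number of arrays, 1 pair per genotype at time 2 and 2 pairs otherwise.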
